A study of Mus musculus with 9 samples.

Results

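The Ly6 antigens and F4/80 are the surface proteins by which mouse myeloid cells are usually divided, and the measurements below cover the probe sets for Ly6g, Ly6c1, Ly6a and Adgre1, the gene of F4/80. Members were all probe sets whose symbol in the platform annotation is exactly one of these 4 genes, which gave 3 of the 12488 probe sets on the array. Ly6g had 1 and Adgre1 had 2. Ly6c1 occurred only in a probe set listed together with Ly6c2, which is therefore no member and is described as a shared measurement of both genes. Ly6a, which encodes the stem cell antigen Sca-1, was listed for no probe set and is named only.

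Splenic cells carrying CD11b, from female mice 8 to 12 weeks old, were sorted and their RNA hybridised to Affymetrix MG-U74Av2 oligonucleotide arrays, 1 array per sample. The 9 arrays form 3 groups of 3: cells of tumor-bearing mice kept for 24 h in complete medium (cultured), cells of tumor-bearing mice taken without culture (fresh, 0 h), and uncultured cells of tumor-free mice. The labels used here give neither the mouse strain nor the tumor, and culture was applied to tumor-bearing cells alone, so the cultured against tumor-free comparison differs in both tumor and culture. Whether replicates are different mice is not stated in the labels, and the p-values therefore describe the spread among these arrays, possibly a technical one.

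Ly6 proteins are small, three-fingered proteins held in the outer membrane by a lipid anchor, and many of their genes lie side by side on mouse chromosome 15. Ly-6G is carried by neutrophils, whereas Ly-6C is carried by inflammatory monocytes and, at a lower level, by neutrophils. The Gr-1 antibody, long used to define myeloid cells that accumulate in the spleens of tumor-bearing mice, binds Ly-6G and also Ly-6C. F4/80, an adhesion receptor that passes the membrane several times and carries epidermal growth factor-like repeats, marks splenic red pulp macrophages and is also found on monocytes and eosinophils.

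The promoters of these Ly6 neighbours are shown so that their likeness can be read directly. They say nothing of how well the probe sets separate the transcripts, since neither probe nor transcript sequences were compared here. Each sequence runs from 250 bases before to 50 bases after a transcript start, in the direction of transcription, from RefSeq on GRCm38.p6. Each gene had 2 starts in the table, and the most upstream one is shown. The windows lie at chr15:75155011-75155310 (Ly6g, plus strand), chr15:75048788-75049087 (Ly6c1, minus strand) and chr15:75111922-75112221 (Ly6c2, minus strand). Capitals mark the letters GAGGAAGT, a purine-rich string of the kind bound by the myeloid factor PU.1, chosen with the sequences in view.
Ly6g: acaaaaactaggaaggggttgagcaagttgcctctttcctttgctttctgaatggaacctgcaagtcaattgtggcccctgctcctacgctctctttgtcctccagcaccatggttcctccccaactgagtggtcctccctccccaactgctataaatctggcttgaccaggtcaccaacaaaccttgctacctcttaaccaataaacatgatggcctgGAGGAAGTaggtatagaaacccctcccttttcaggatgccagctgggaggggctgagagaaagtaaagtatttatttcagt
Ly6c1: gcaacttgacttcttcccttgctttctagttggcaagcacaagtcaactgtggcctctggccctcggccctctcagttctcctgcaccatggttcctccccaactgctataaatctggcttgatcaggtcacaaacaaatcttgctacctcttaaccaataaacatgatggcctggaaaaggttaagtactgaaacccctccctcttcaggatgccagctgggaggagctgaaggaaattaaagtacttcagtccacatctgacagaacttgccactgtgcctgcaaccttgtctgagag
Ly6c2: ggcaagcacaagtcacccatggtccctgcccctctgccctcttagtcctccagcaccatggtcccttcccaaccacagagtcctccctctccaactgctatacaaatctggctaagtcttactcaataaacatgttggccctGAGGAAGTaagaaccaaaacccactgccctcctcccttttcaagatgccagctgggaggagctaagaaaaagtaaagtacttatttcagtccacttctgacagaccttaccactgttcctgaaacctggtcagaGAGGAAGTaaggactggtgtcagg
The capitals begin at position -31 from the start in Ly6g and at -108 and 27 in Ly6c2, and the letters are not in the Ly6c1 window. This was the only motif searched, and it occurred on either strand in 1052 of 32851 promoter windows of the same length (3.2%). In local alignment Ly6g and Ly6c1 were identical at 77.1% of 271 aligned columns, Ly6g and Ly6c2 at 71.4% of 248, and Ly6c1 and Ly6c2 at 73.8% of 282. Of the 4 member genes, 2 had a window in the table.

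Signals are MAS5 values, linear intensities scaled to a common trimmed mean on every array, whose median signal was 33.4 to 42.8. Tests were run on log2(signal + 7.83), an offset equal to the 20th percentile of the signals, over 8695 probe sets left after control and dim probe sets were removed. Both brighter member probe sets, for Ly6g and Adgre1, passed this filter and the dimmer Adgre1 probe set did not. Arrays of one group were not equally alike. Over the tested probe sets the log2 signals of tumor-free replicate 1 correlated with its own group at 0.823 and 0.827 (Pearson), below its 0.860 with a cultured array, whereas tumor-free replicates 2 and 3 correlated at 0.957. Cultured replicate 3 correlated with its group at 0.850 and 0.869 and with arrays of other groups at up to 0.862, whereas cultured replicates 1 and 2 correlated at 0.929. Values of the members and of some of the other genes described are given without these arrays where that changes a call or a sign or moves a value markedly. For the remaining genes no such values are given, which does not mean that they were stable.

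The CD11b sort marker Itgam, the gene of CD11b itself, was measured on every array. It read 363, 333 and 954 in cultured cells (replicates 1 to 3), 392, 414 and 585 in fresh cells, and 373, 244 and 256 in tumor-free cells. All values lay far above the offset and the fresh arrays all exceeded the tumor-free ones, a step of 0.66 ± 0.39 on the log2 scale (limma, adjusted p = 0.404) that did not pass the test. Without tumor-free replicate 1 it was 0.85 (adjusted p = 0.25), and it passed with array weights (0.62, adjusted p = 0.0436) and in the closest pair of arrays of each group (0.67, adjusted p = 0.0203), pairs picked for likeness.

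Ly6g, the neutrophil antigen, lay far above the offset on every array and did not differ between groups beyond the spread of the arrays. Its signal was 647, 196 and 3562 in cultured cells (replicates 1 to 3), 721, 594 and 957 in fresh cells, and 93.6, 711 and 831 in tumor-free cells. Cultured replicate 3 held the highest and tumor-free replicate 1 the lowest value, the fresh arrays lay close together, and the groups overlapped in all 3 comparisons. Means were 1468 ± 1827 in cultured, 757 ± 184 in fresh and 545 ± 396 in tumor-free cells (SD, n = 3 each), and no neighbours in this order differed beyond their spread.

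**Figure D1:**
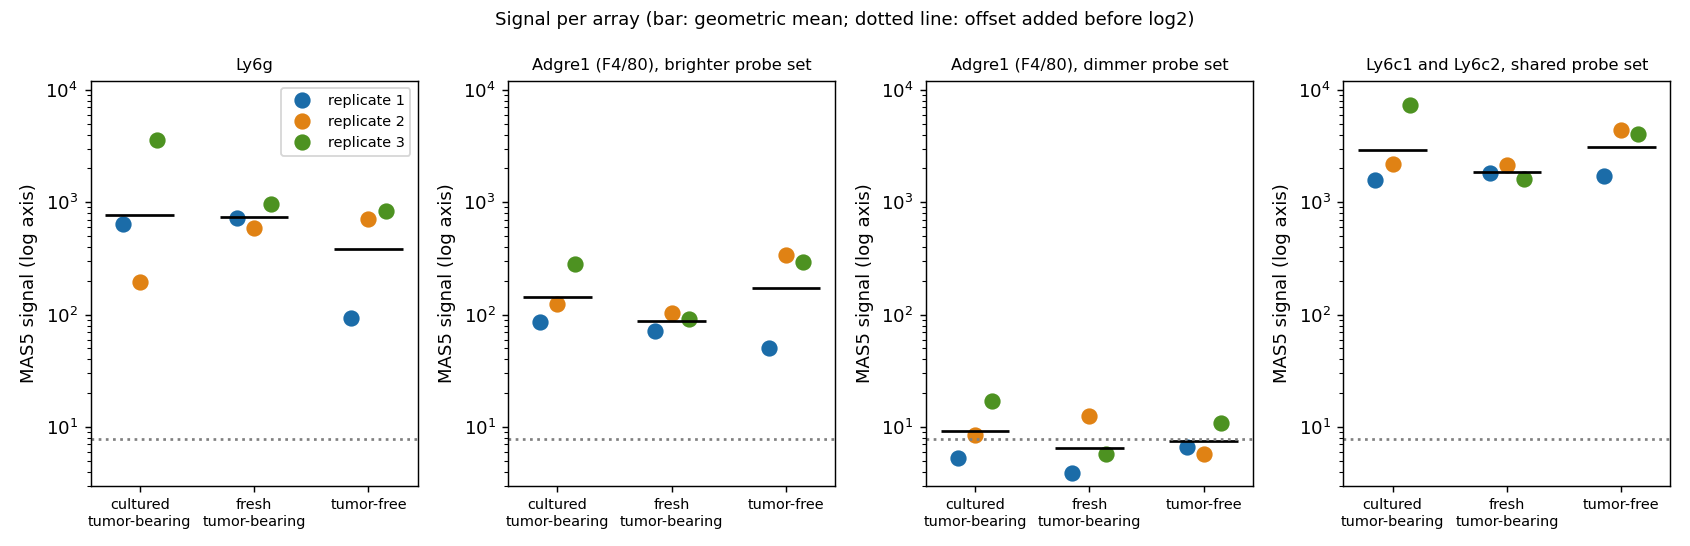
MAS5 signal on a log axis for each array, in 4 panels (Ly6g, the brighter and the dimmer Adgre1 probe set, and the probe set shared by Ly6c1 and Ly6c2), with cultured, fresh and tumor-free cells from left to right; points are arrays coloured by replicate number, bars are geometric means and the dotted line is the offset of 7.83. The groups overlap in every panel, and Ly6g spans 93.6 to 3562 over the 9 arrays.

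Between fresh and tumor-free cells the Ly6g log2 fold change was 0.93 ± 0.97 (SE; 95% interval -1.21 to 3.07; limma, adjusted p = 0.648), 1.91-fold higher in fresh cells. Without tumor-free replicate 1 it was -0.048 (limma, adjusted p = 0.980), so the sign rested on that array. Cultured against fresh cells gave 0.06 ± 0.97 (95% interval -2.08 to 2.2; limma, adjusted p = 0.987), and without cultured replicate 3 it became -1.04 (limma, adjusted p = 0.566). Cultured against tumor-free cells gave 0.99 ± 0.97 (95% interval -1.15 to 3.13; limma, adjusted p = 0.703), and without tumor-free replicate 1 or cultured replicate 3 it was 0.0089 or -0.11 (adjusted p = 0.999 and 0.965). These intervals span changes of more than 4 log2 units, so neither a rise nor a fall of several fold was resolved. In bulk cells, fewer cells of a type and less RNA per cell cannot be told apart.

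Adgre1, the gene of F4/80, did not pass the test in any comparison either. Its brighter probe set read 85.6, 125 and 282 in cultured cells, 72.1, 104 and 91.65 in fresh cells, and 50.4, 337 and 295 in tumor-free cells. Tumor-free replicates 2 and 3 were the highest of all arrays, while tumor-free replicate 1 was the lowest of all. Means were 164 ± 104 in cultured, 89.2 ± 16.1 in fresh and 228 ± 155 in tumor-free cells (SD, n = 3 each), in reverse order to Ly6g for the uncultured pair.

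The fresh against tumor-free log2 fold change of Adgre1 was -0.93 ± 0.62 (SE; 95% interval -2.30 to 0.45; limma, adjusted p = 0.469). Without tumor-free replicate 1 it was -1.75, which passed the test (limma, adjusted p = 0.0298), and the fresh group then no longer overlapped the 2 remaining tumor-free arrays. Cultured against fresh cells gave 0.67 ± 0.62 (95% interval -0.70 to 2.05; limma, adjusted p = 0.674) and cultured against tumor-free cells -0.25 ± 0.62 (95% interval -1.63 to 1.12; limma, adjusted p = 0.901). Without cultured replicate 3 these were 0.21 (adjusted p = 0.914) and -0.71 (adjusted p = 0.617), and without tumor-free replicate 1 the change of cultured against tumor-free cells was -1.08 (adjusted p = 0.176).

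The dimmer Adgre1 probe set read 5.25, 8.56 and 17.0 in cultured cells, 3.86, 12.5 and 5.75 in fresh cells, and 6.68, 5.74 and 10.75 in tumor-free cells. These values lie around the offset of 7.83, so they carry little information on the level of the gene, and the 2 probe sets of Adgre1 correlated at 0.498 over the 9 arrays (Pearson, a description). With no filter the fresh against tumor-free change of this probe set was -0.06 ± 0.30 (limma, adjusted p = 0.950), where 1.22% of all probe sets were called.

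Of the 2 member probe sets tested, 0 were called in fresh against tumor-free cells (limma, adjusted p below 0.05), where 1.9% of all tested probe sets were called. In cultured against fresh cells 0 were called against 2.69% of all tested, and in cultured against tumor-free cells 0 against 1.23%. At an unadjusted p below 0.05 the counts were also 0 in each, against 16.7%, 16.3% and 14.1% of all tested. The groups of both members overlapped in every comparison, while 22.4% (fresh against tumor-free), 22.2% (cultured against fresh) and 18.5% (cultured against tumor-free) of all tested probe sets did not overlap. With 2 probe sets, a count of 0 is near what these shares give.

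The probe set shared by Ly6c1 and Ly6c2, which encode the Ly-6C antigens of monocytes, also kept overlapping groups in every comparison. It read 1589, 2186 and 7275 in cultured cells, 1806, 2151 and 1608 in fresh cells, and 1706, 4402 and 4095 in tumor-free cells. Cultured replicate 3 was again the highest, and tumor-free replicates 2 and 3 stood above the fresh arrays while tumor-free replicate 1 did not. The fresh against tumor-free log2 fold change was -0.76 ± 0.54 (95% interval -1.96 to 0.43; limma, adjusted p = 0.492), and the 2 genes cannot be told apart on this probe set. Without tumor-free replicate 1 it was -1.20 (limma, adjusted p = 0.202), and it passed with array weights (-1.09, adjusted p = 0.0133) and in the closest pairs (-1.10, adjusted p = 0.00505). Cultured against fresh cells gave 0.67 (limma, adjusted p = 0.614), or 0.017 without cultured replicate 3 (adjusted p = 0.990). Cultured against tumor-free cells gave -0.09 (limma, adjusted p = 0.963), or -0.53 without tumor-free replicate 1 and -0.75 without cultured replicate 3 (adjusted p = 0.640 and 0.371). Over the 9 arrays it correlated with Adgre1 at 0.904 and with Ly6g at 0.616, and Ly6g with Adgre1 at 0.587 (Pearson). These are descriptions over arrays that share their group and their position apart from the rest.

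Cultured replicates 1 and 2 and tumor-free replicate 1 had the 3 highest ratios of 3′ to 5′ actin signal, a measure of RNA integrity, at 2.27, 2.36 and 2.57 against 0.994 to 1.59 on the other arrays. Their Ly6g values were among the 4 lowest of the 9 arrays. When the arrays were divided by the level of bacterial spike-in probe sets, Ly6g was higher in fresh than in tumor-free cells by 2.71 (log2) within the class of high spike-in signal (2 fresh arrays against tumor-free replicate 1) and by 0.31 within the other (fresh replicate 3 against tumor-free replicates 2 and 3). Adgre1 differed by 0.70 and -1.70 in the same pairs of classes. The part of RNA integrity or of this division in the results was not tested.

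**Figure D2:**
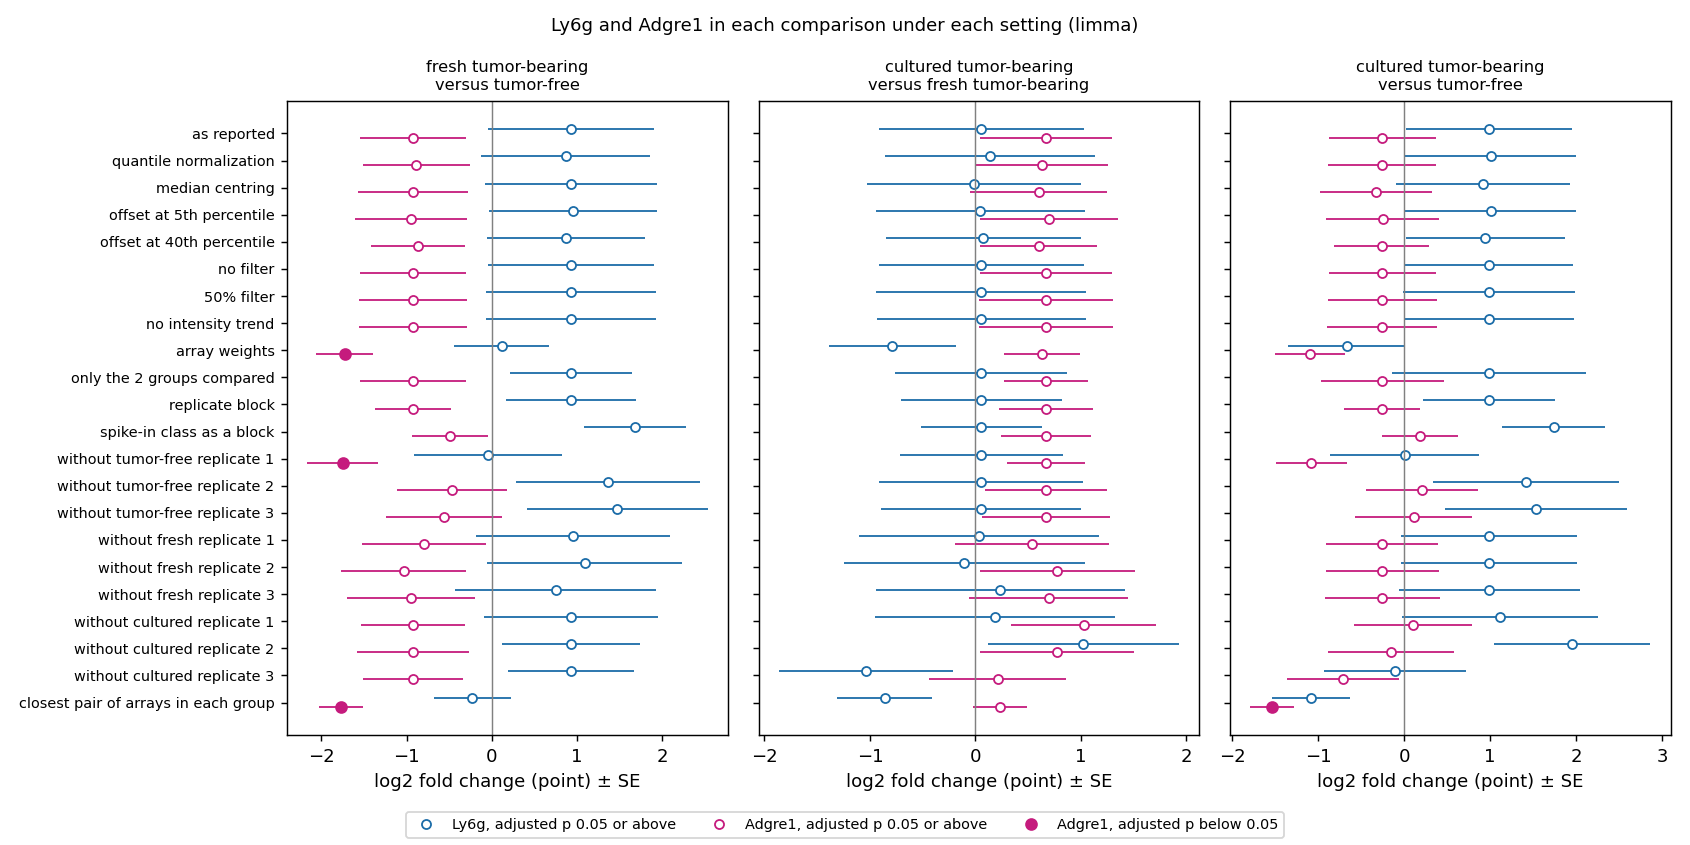
Log2 fold change of Ly6g (blue) and the brighter Adgre1 probe set (magenta) with its standard error (horizontal lines) in each of the 3 comparisons, one row per processing setting; filled points passed an adjusted p of 0.05. Adgre1 in fresh against tumor-free cells lies below 0 in every row and is filled in 3 rows (array weights, without tumor-free replicate 1, and the closest pair of arrays in each group), and Ly6g has points on both sides of 0 in all 3 panels.

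Of the 10 tested genes on the list of other Ly6 superfamily genes, 9 of them without Ly86, Ly6e alone was called, and it was lower in fresh than in tumor-free cells. Ly6e encodes a Ly6 protein made by many cell types and induced by interferon. Its brighter probe set read 1633, 2600 and 4206 in cultured cells, 931, 861 and 1163 in fresh cells, and 2892, 5429 and 4327 in tumor-free cells. All fresh arrays lay below all tumor-free arrays and below all cultured arrays. The fresh against tumor-free fall was -2.05 ± 0.37 (log2, 95% interval -2.88 to -1.23; limma, adjusted p = 0.0203), 0.241 times the tumor-free level, and 13.1% of all tested probe sets had non-overlapping groups in this direction (13.4% for cultured above fresh cells). The call was lost without tumor-free replicate 2 (limma, adjusted p = 0.109), tumor-free replicate 3 (0.0951), fresh replicate 1 (0.0985) or fresh replicate 2 (0.107). A dimmer Ly6e probe set did not pass the filter. It read 22.7, 36.9 and 10.95 in cultured, 15.1, 7.13 and 7.57 in fresh, and 14.7, 7.80 and 8.07 in tumor-free cells. Its fresh and tumor-free arrays overlapped, with values near the offset.

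The fresh arrays on which Ly6e was low were also those with high signal of pancreatic acinar genes. Of 10 tested acinar genes, 9 were called higher and 0 lower in fresh against tumor-free cells (median log2 fold change 4.62), and 0 higher and 9 lower in cultured against fresh cells (median -4.09). Reg2, a secreted lectin of the pancreas, was 8.16 log2 units higher in fresh than in tumor-free cells (limma, adjusted p = 4.1e-05). Summed acinar signals were 573 to 1178 in cultured, 12593 to 21581 in fresh and 618 to 908 in tumor-free cells. Summed signals of red cell genes, of which 0 of 6 tested were called in each comparison, were 765 to 7036 in cultured, 4755 to 6408 in fresh and 554 to 2302 in tumor-free cells. The part of acinar or red cell RNA in the Ly6e, Ly6g and Adgre1 values, and in the marker lists described further on, was not tested.

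Cultured cells gave 1.41 ± 0.37 for Ly6e against fresh cells (log2, limma, adjusted p = 0.0745), which did not pass, and -0.64 ± 0.37 against tumor-free cells (limma, adjusted p = 0.487). The first passed without tumor-free replicate 1 (1.41, adjusted p = 0.0345), without cultured replicate 1 (1.75, adjusted p = 0.0484), and in 4 further settings with adjusted p of 0.00248 to 0.0452. The second passed with array weights (-0.94, adjusted p = 0.0337) and in the closest pairs (-1.23, adjusted p = 0.00748). Beside it, 2 of 12 tested genes of the type I interferon list were called lower in fresh than in tumor-free cells and 3 were called higher in cultured than in fresh cells, among them Usp18, an interferon-induced brake on that pathway, at 3.78 (limma, adjusted p = 0.00866), a call kept when any single array was left out. Of 14 tested genes of the interferon gamma list, 0 were called in fresh against tumor-free cells (median -1.12), 5 higher in cultured against fresh cells (median 1.93) and 2 higher in cultured against tumor-free cells (median 0.60). Its summed signals were 2842 to 11351 in cultured, 1051 to 1426 in fresh and 1954 to 3551 in tumor-free cells. Summed signals of the type I list were 1242 to 8490 in cultured, 654 to 1212 in fresh and 2111 to 3385 in tumor-free cells. The part of either interferon response in Ly6e was not tested.

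The list of other Ly6 superfamily genes held 25 genes, of which 12 were on the array and 10 were tested. In fresh against tumor-free cells 0 were called higher and 1 lower, with a median log2 fold change of 0.16, against 0.0093 over all tested probe sets. In cultured against fresh and cultured against tumor-free cells 0 were called, with medians of -0.21 and -0.18 against 0.0241 and 0.0507. The list includes Ly86, whose protein lacks the Ly6 fold. Without it the calls were the same, 1 lower of 9 in fresh against tumor-free cells and 0 of 9 in the others, and the medians were 0.24, -0.081 and -0.021. Plaur, the urokinase receptor, read 264, 251 and 513 in cultured, 1129, 1142 and 1296 in fresh, and 1347, 100.3 and 109 in tumor-free cells. Tumor-free replicate 1 stood among the fresh arrays in this gene and the other tumor-free arrays far below, so the change of 2.21 ± 0.78 (limma, adjusted p = 0.187) became 3.41 without it (adjusted p = 0.000157).

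Ly86, which encodes a secreted partner of a Toll-like receptor homologue and is not a Ly6-fold protein despite its symbol, read 171, 123 and 148 in cultured, 322, 299 and 165.5 in fresh, and 144, 879 and 720.05 in tumor-free cells. Again tumor-free replicate 1 was low, and the change in fresh against tumor-free cells was -0.83 (limma, adjusted p = 0.474), or -1.63 without it (adjusted p = 0.0113). Of the 5 EGF-TM7 and other adhesion receptor genes tested beside Adgre1, 0 were called in each comparison, with medians of 0.57 (fresh against tumor-free), -0.70 (cultured against fresh) and -0.06 (cultured against tumor-free). In fresh against tumor-free cells Adgrg3, Adgrg1, Adgrb1 and Adgrl1 gave 0.67, 0.65, 0.57 and -0.06 (limma, adjusted p = 0.314, 0.409, 0.481 and 0.937). Adgrb1 gave 1.11 in cultured against tumor-free cells (limma, adjusted p = 0.222). Adgre5, the gene of the leukocyte receptor CD97, was opposite in sign to the list's fresh against tumor-free median. Adgre5 gave -0.95 in fresh and -1.87 in cultured cells against tumor-free cells (limma, adjusted p = 0.476 and 0.218). Without tumor-free replicate 1 these were -1.72 (adjusted p = 0.0715) and -2.65, which passed (adjusted p = 0.0132), and both passed with array weights (-1.31 and -2.84, adjusted p = 0.013 and 0.0015) and in the closest pairs (-1.44 and -3.23, adjusted p = 0.00336 and 7.15e-05).

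Markers of the cell types that carry these antigens moved as follows. Of 15 tested neutrophil genes, 0 were called higher and 2 lower in fresh against tumor-free cells, Cxcr2, a chemokine receptor, at -1.72 (limma, adjusted p = 0.0385) and Csf3r, the receptor of granulocyte colony-stimulating factor, at -1.31 (adjusted p = 0.0413). Both calls were lost without tumor-free replicate 2 or 3, any fresh replicate or cultured replicate 1 (limma, adjusted p of 0.054 to 0.17 for Cxcr2 and 0.0643 to 0.201 for Csf3r). The list's median change was 1.36, opposite in sign to both. Its largest changes were rises in fresh cells that did not pass the test. They were Mpo at 3.03, Ctsg at 2.58 and Mmp8 at 2.53 (limma, adjusted p = 0.0953, 0.0508 and 0.0965). Tumor-free replicate 1 stood apart in 2 of them. Mmp8 read 1640, 141 and 218 in tumor-free cells (replicates 1 to 3) and 2142, 2333 and 2093 in fresh cells. Mpo read 2.08, 55.0 and 95.2 in tumor-free cells and 223, 183 and 790 in fresh cells. Their changes without that array are not given. Summed neutrophil signals were 17227 to 48332 in cultured, 51782 to 62312 in fresh and 35299 to 50321 in tumor-free cells. In cultured against tumor-free cells 2 neutrophil genes were called lower, Cxcr2 at -2.28 and Csf3r at -1.79 (limma, adjusted p = 0.0144 and 0.0133). Each of these calls was lost in 5 other settings. In cultured against fresh cells 2 were called lower, Mpo at -3.68 (limma, adjusted p = 0.0409) and Prtn3 at -2.56 (adjusted p = 0.0355), both neutrophil primary granule genes. Both calls were lost without any single fresh replicate or without cultured replicate 1 or 2, and that of Mpo also without tumor-free replicate 2 (limma, adjusted p of 0.0522 to 0.165 for Mpo and 0.0532 to 0.134 for Prtn3).

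Of 11 tested monocyte genes, 0 were called higher and 1 lower in fresh against tumor-free cells, the transcription factor Klf4 at -1.65 (limma, adjusted p = 0.0112). Without tumor-free replicate 2 or 3 or fresh replicate 1 or 2 the call was lost (limma, adjusted p of 0.0633 to 0.0715). The list's median change was -0.73, against 0.0093 over all tested probe sets. In cultured against fresh cells 1 monocyte gene was called higher, Irf8 at 1.87 (limma, adjusted p = 0.0253), a call lost in 5 other settings. In cultured against tumor-free cells 1 was called lower, Klf4 at -2.42 (limma, adjusted p = 0.0032), a call kept in every other setting. Summed monocyte signals were 5975 to 13283 in cultured, 11452 to 11918 in fresh and 8944 to 12207 in tumor-free cells. Cd14 alone made up 7779, 7766 and 8194 of the fresh sums and 7644, 2005 and 1287 of the tumor-free sums (replicates 1 to 3). The fresh against tumor-free change of Cd14, 1.55 (limma, adjusted p = 0.230), was opposite in sign to the list's median. Of 15 tested macrophage genes, 0 were called higher and 6 lower in fresh against tumor-free cells. Among the 6 was the complement chain C1qa at -2.99 (limma, adjusted p = 0.0357). Its call was lost without tumor-free replicate 2 or 3, any fresh replicate or cultured replicate 2 (limma, adjusted p of 0.0605 to 0.165). The macrophage list's median change was -1.69 in that comparison and 0.19 in cultured against fresh cells. In cultured against fresh cells 1 was called higher, Hmox1 at 1.71, and 1 lower, Mrc1 at -2.29 (limma, adjusted p = 0.0232 and 0.0121). Summed macrophage signals were 6306 to 8394 in cultured, 3824 to 3992 in fresh and 6368 to 18073 in tumor-free cells. Of these, Hmox1 made up 2606, 3273 and 2662 in cultured and 864, 939 and 784 in fresh cells (replicates 1 to 3). Csf1r made up 2514, 3128 and 999 in cultured and 1163, 1240 and 873 in fresh cells. It is also on the monocyte list and is counted in both sums. In cultured against tumor-free cells 5 macrophage genes were called lower, among them Mrc1, the mannose receptor, at -4.09 (limma, adjusted p = 0.00142), a call kept when any single array was left out.

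**Figure D3:**
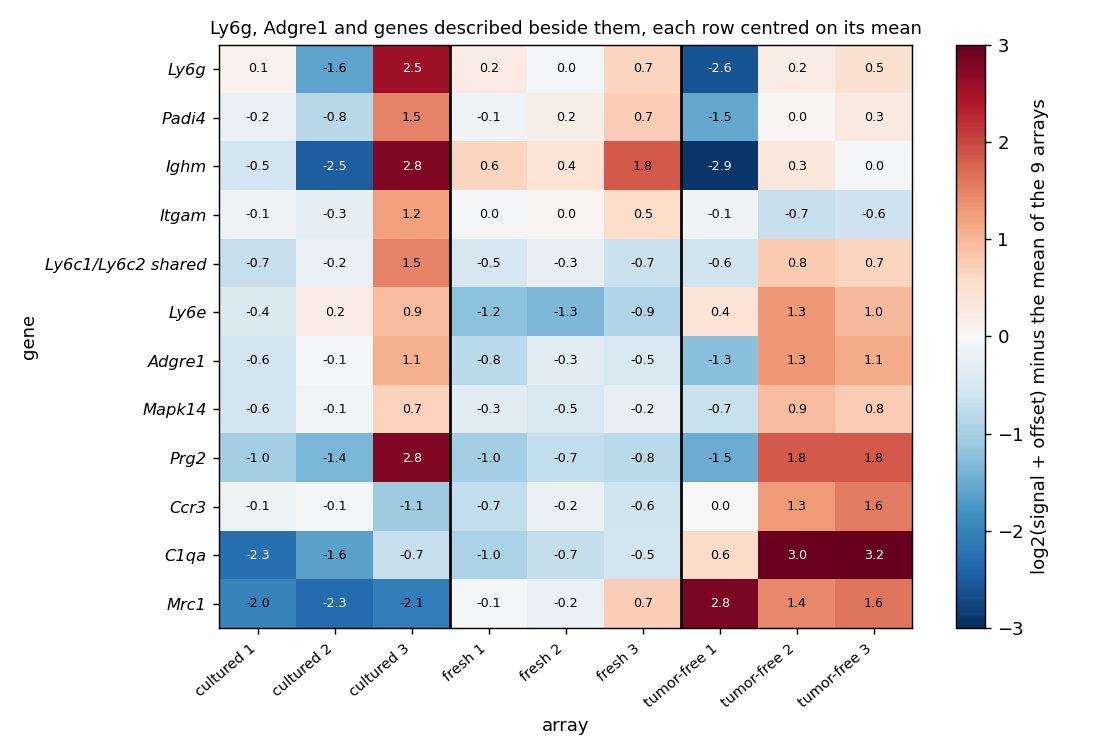
Log2(signal + offset) of Ly6g, Adgre1 and genes described beside them, minus each gene's mean over the 9 arrays, by array (columns, cultured, fresh and tumor-free from left to right); red is above and blue below the mean. Ly6g and Padi4 are highest on cultured replicate 3 and lowest on tumor-free replicate 1, Adgre1 is highest on tumor-free replicates 2 and 3, and Mrc1 is high on all 3 tumor-free arrays. The Ighm row shows only the probe set most like Ly6g.

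Eosinophils also carry F4/80. Of 2 tested eosinophil genes 0 were called in each comparison, and the summed list signal was 37.0 to 249.5 in cultured, 25.9 to 42.4 in fresh and 37.3 to 224 in tumor-free cells. Prg2, the granule protein that defines eosinophils, read 7.10, 3.97 and 200.2 in cultured, 7.05, 10.4 and 9.56 in fresh, and 3.00, 101 and 101 in tumor-free cells. It was near the offset except on cultured replicate 3 and tumor-free replicates 2 and 3, the 3 arrays on which Adgre1 was highest. Ccr3, the other tested gene, read 29.4, 31.3 and 11.75 in cultured and 16.6, 27.55 and 19.3 in fresh cells. In tumor-free cells it read 32.4, 90.5 and 112. Ccr3 was thus high on tumor-free replicates 2 and 3 but lowest of all on cultured replicate 3. In fresh against tumor-free cells Ccr3 passed the test in 3 other settings and Prg2 in 2. The settings include leaving out arrays and weighting them. Of the tumor-free arrays, replicate 1 was the lowest for both genes. For B cells, summed signals were 488 to 2056 in cultured, 1258 to 1507 in fresh and 265 to 3263 in tumor-free cells, and 0 genes were called in each comparison. The part of these markers in the Adgre1 and Ly6g values was not tested.

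The genes whose log2 signal most resembled each member over the 9 arrays were chosen by Pearson correlation among tested probe sets with 1 symbol. For Ly6g they were Padi4, which citrullinates histones in neutrophils, at 0.974, Ap1g1, an adaptor subunit of vesicle transport, at 0.951, and 1 of several probe sets of Ighm, the immunoglobulin mu heavy chain, at 0.950. Without tumor-free replicate 1 and cultured replicate 3, the arrays farthest from the Ly6g median, these were 0.882, 0.873 and 0.904 over 7 arrays. The brightest Ighm probe set was instead highest on tumor-free replicates 2 and 3. It read 397, 174 and 1357 in cultured, 834, 929 and 1055 in fresh, and 64.9, 1666 and 2121 in tumor-free cells. Padi4 read 59.6, 35.9 and 210 in cultured, 64.6, 79.7 and 121 in fresh, and 19.2, 71.6 and 85.9 in tumor-free cells, with the same extreme arrays as Ly6g.

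For the brighter Adgre1 probe set the nearest genes were Mapk14, which encodes a p38 stress kinase, at 0.970, Smim20 at 0.960 and Tex264 at 0.952, and without tumor-free replicates 2 and 3 they were 0.934, 0.956 and 0.895 over 7 arrays. For the dimmer probe set they were Mid1ip1 at 0.902, Ormdl1 at 0.869 and G3bp2 at 0.852, and 0.734, 0.649 and 0.547 without cultured replicate 3 and fresh replicate 2. These were picked as the highest over 9 arrays and are given as a description.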

How the data were processed

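Total RNA of sorted cells was labelled with biotin and hybridised, 5 ug per array, per the labels' protocols. The deposited values are array intensity, 1 MAS5 signal per probe set and array on a linear scale, per the submitters' processing notes; its version and settings are not stated in the labels. The 2% trimmed mean was 100.06 to 100.08 on every array, so values were used as scaled by the authors. The number of arrays limits the precision, and no detection calls were used.

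After removal of 66 control probe sets and of the dimmest 30% by mean log2 signal, 8695 remained. limma 3.58.1 (R 4.3.3) fitted 3 group means to log2(signal + 7.83) of the 9 arrays (6 residual degrees of freedom) with an intensity trend. Tests were two-sided, p-values were adjusted by Benjamini-Hochberg across the tested probe sets, and the threshold was 0.05. Fold changes on this scale understate those of dim genes. Comparisons share arrays, so none is independent of the others. The procedure was tested on simulated data in which 200 of 8695 probe sets were changed. It called 15.5 to 18.4% of changes of 1 log2 unit, 66.9 to 70.5% of 2 and 95.7 to 97.1% of 4. Many changes of 1 log2 unit would therefore be missed. These rates are averages over probe sets drawn at random, and rates for the members were not computed. In fresh against tumor-free cells the standard errors of Ly6g and Adgre1 were 0.97 and 0.62. The simulated arrays all had the same spread, unlike these arrays, some of which stand apart.

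The platform annotation gave 1 symbol for 10855 probe sets, several for 396 and did not list 1237. The members and gene lists were chosen with earlier results of these data known. Named genes are the members, Itgam, the tested EGF-TM7 and adhesion receptor genes, and the 3 genes most like each member. Of each marker list up to 3 members with the largest change are named. Of the tested other Ly6 superfamily genes only Ly6e, Plaur and Ly86 are named, the 3 with the largest change in fresh against tumor-free cells. Cxcr2, Csf3r and Cd14 in fresh against tumor-free cells, and Csf1r, fall outside the 3 of their lists. They were chosen after their values were seen. Promoters were aligned with Biopython 1.88.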

Additional observations from a re-analysis of the deposited data

How the results depend on the processing

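Ly6g kept no call and changed sign in several settings. In fresh against tumor-free cells its log2 change ranged from -0.048 (without tumor-free replicate 1) to 1.48 when arrays were left out in turn, and was -0.23 when the closest pair of arrays in each group was used, a setting chosen after seeing the data whose spread is understated because the pairs were picked for likeness. In cultured against fresh cells it ranged from -1.04 to 1.03, with -0.10 without fresh replicate 2, and was -0.012 under median centring, -0.79 with array weights and -0.86 in the closest pairs. In cultured against tumor-free cells it ranged from -0.11 to 1.96, and was -0.67 with array weights and -1.09 in the closest pairs. Within the high spike-in class Ly6g was 2.71 in fresh against tumor-free cells, and within the low class 1.89 in cultured against fresh cells. Adgre1 in fresh against tumor-free cells ranged from -1.75 to -0.47 and passed with array weights (-1.73), without tumor-free replicate 1 and in the closest pairs (-1.77), so 1 member was called in each of these 3, and was 0.70 within the high class. In cultured against fresh cells it ranged from 0.21 to 1.03. In cultured against tumor-free cells it ranged from -1.08 to 0.20, with 0.20, 0.11 and 0.10 without tumor-free replicate 2, tumor-free replicate 3 and cultured replicate 1, and was 0.18 with spike-in class as block, 0.93 within the high class and -1.54 in the closest pairs, where 1 member was called. The shared Ly6c1 and Ly6c2 probe set was -0.080 in the closest pairs for cultured against fresh cells, and in cultured against tumor-free cells 0.24 with the spike-in block, between -0.75 and 0.35 with arrays left out, and 0.15, 0.10, 0.35 and 0.12 without tumor-free replicate 2, tumor-free replicate 3, cultured replicate 1 and cultured replicate 2. The cause was not tested.

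Same-numbered arrays of 2 groups correlated between -0.200 and 0.259 in their deviations. Replicate 1 matched its own number best in both comparisons with tumor-free cells, and replicate 3 did so in cultured against fresh cells. Whether the numbers pair the samples cannot be decided from 3 arrays per group. With the replicate block Ly6g was 0.93 (limma, adjusted p = 0.547) and Adgre1 -0.93 (adjusted p = 0.315) in fresh against tumor-free cells, 0 members were called in each comparison, and all called probe sets numbered 200, 258 and 144, against 165, 234 and 107 without it. Ly6e in cultured against fresh cells passed with it (adjusted p = 0.0452), and also with array weights (0.00248), with the spike-in block (0.0121), in the closest pairs (0.0113) and without tumor-free replicate 1 (0.0345) or cultured replicate 1 (0.0484). Over all probe sets, array weights gave 3174, 1902 and 1389 calls, the spike-in block 277, 556 and 177, the closest pairs 2147, 1374 and 1810, and fits of only 2 groups 159, 315 and 14. Leaving out arrays gave 63 to 623, 74 to 489 and 24 to 529. Signals near the offset limit what the dimmer Adgre1 probe set can show.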
